A study of Homo sapiens with 6 samples.

Results

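The subject is a set of 282 named antisense RNAs in EndoC-βH1 cells, a human beta cell line, measured without and with inflammatory cytokines. A locus of the authors' deposited count table was a member if its name was a single gene symbol ending in AS, with or without a digit, and its mean over the 6 libraries was at least 20 normalized counts (reads divided by a library size factor). These are 282 of the 61695 loci in the count tables, of which 30206 had an adjusted p. Of 1032 loci named that way, 850 had a read and 607 an adjusted p, and 1 second entry of a member's symbol was left out. A further 128 loci held an antisense symbol joined to other symbols and were not members. The members' means ran from 20.1 to 5355 normalized counts with a median of 84.2, and together they held 0.157% of all normalized counts. The mean that chose the members is a description and is not tested. Just under the minimum lay IBA57-AS1 at 19.7 and SRP54-AS1 at 19.5, and just above it RNASEH2B-AS1 at 20.1 and ZNF32-AS1 at 20.2 normalized counts.

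EndoC-βH1 is an immortalized line derived from human fetal pancreas, so it is 1 line and not islet tissue. Poly(A) RNA was sequenced in 3 control libraries and in 3 libraries of cells given IL-1β at 5, TNF-α at 10, IFN-γ at 50 and IL-17 at 100 ng/ml for 24 h, after all cells had attached for 24 h at 11 mM glucose. The labels call the control cells unexposed cells taken ahead of the treatment, whereas the extraction protocol speaks of cells kept for 24 h with or without cytokines, so time in culture and the cytokines cannot be told apart from these sources. Libraries averaged 40881975 normalized counts. The deposited tables hold a mean, a log2 fold change of cytokines over control with its standard error (SE), and a p for each locus, but no value per library. The 2 group means given below were therefore derived from the mean and the fold change, and no value of a single library can be shown. Whether the 3 libraries of a group are separate cultures is not stated, so each p reflects only how these libraries vary, which may be technical variation.

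A natural antisense RNA is read from the DNA strand opposite a named gene and takes that gene's symbol with the suffix AS. Such RNAs arise in different ways: from a promoter that fires in both directions, from a start inside the sense gene, or from a neighbouring gene that runs into the sense gene from its far end. Individual examples are known to recruit chromatin regulators, to mask or stabilize the sense messenger RNA by pairing with it, to feed double-stranded RNA sensors, or to bind microRNAs away from the sense locus. Most are low in abundance and many are short-lived, because the nuclear RNA exosome degrades them. In beta cells the best known is PLUT, listed here under its older symbol PDX1-AS1, which has been linked to expression of the beta cell transcription factor PDX1.

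Promoter windows are shown for 6 members whose changes are described below. TFAP2A-AS1 and MMP25-AS1 are steep rises, DNAJC3-AS1 rises together with its sense gene, ACVR2B-AS1 rises while its sense gene falls, and DPP10-AS1 and SSTR5-AS1 fall with their sense genes. Each window holds 250 bases before and 50 bases after the RefSeq start of the antisense RNA (build GRCh38.p14), written 5′ to 3′ on the strand of the antisense RNA, and capitals mark a match to 1 of 3 motifs described next.
TFAP2A-AS1 (chr6:10412068-10412367, plus strand): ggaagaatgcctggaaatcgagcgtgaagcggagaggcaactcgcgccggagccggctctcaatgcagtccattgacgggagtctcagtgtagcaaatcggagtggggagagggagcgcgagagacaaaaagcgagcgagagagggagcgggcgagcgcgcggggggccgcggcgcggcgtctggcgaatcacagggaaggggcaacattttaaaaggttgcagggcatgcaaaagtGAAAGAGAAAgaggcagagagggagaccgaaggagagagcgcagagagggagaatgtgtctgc
MMP25-AS1 (chr16:3059321-3059620, minus strand): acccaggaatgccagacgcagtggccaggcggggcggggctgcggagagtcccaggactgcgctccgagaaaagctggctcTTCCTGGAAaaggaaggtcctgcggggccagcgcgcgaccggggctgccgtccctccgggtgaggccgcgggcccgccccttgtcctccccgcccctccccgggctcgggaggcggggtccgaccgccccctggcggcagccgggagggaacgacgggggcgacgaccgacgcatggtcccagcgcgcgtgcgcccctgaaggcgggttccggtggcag
DNAJC3-AS1 (chr13:95676876-95677175, minus strand): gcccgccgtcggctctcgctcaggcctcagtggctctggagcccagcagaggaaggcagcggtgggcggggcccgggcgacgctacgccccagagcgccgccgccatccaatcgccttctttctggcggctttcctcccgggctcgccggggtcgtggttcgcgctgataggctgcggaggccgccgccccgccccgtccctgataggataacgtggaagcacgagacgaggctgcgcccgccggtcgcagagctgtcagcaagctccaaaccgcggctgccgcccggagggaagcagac
ACVR2B-AS1 (chr3:38454771-38455070, minus strand): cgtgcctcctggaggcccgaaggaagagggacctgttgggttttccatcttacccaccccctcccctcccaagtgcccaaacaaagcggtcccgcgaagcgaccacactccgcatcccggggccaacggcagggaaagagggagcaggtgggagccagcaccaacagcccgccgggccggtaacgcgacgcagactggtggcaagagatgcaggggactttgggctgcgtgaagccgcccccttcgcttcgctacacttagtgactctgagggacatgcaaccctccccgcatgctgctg
DPP10-AS1 (chr2:115161294-115161593, minus strand): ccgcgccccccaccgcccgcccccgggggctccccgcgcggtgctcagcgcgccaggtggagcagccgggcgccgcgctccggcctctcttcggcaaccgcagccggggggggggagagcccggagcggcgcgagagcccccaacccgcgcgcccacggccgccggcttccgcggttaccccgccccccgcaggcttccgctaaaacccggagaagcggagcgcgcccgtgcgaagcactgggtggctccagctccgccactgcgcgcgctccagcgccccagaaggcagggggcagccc
SSTR5-AS1 (chr16:1078682-1078981, minus strand): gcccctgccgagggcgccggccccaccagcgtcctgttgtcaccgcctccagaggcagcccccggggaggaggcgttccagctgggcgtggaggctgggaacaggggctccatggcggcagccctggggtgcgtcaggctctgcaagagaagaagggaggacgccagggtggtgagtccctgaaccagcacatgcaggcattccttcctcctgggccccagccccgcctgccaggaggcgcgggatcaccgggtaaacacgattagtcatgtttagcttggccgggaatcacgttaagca
The motifs, searched on both strands, were GAAA followed after any 2 bases by GAAA (the interferon-stimulated response element, ISRE, bound by interferon regulatory factors), TTCNNNGAA (the gamma-activated site, GAS, bound by STAT dimers) and GGGA followed after any 2 bases by TTCC (a kappaB site, bound by NF-kappaB). The TFAP2A-AS1 window holds GAAAGAGAAA, an ISRE match whose first base lies 13 bases before the start. That RefSeq start lies inside the span given below for TFAP2A-AS1, so the window is not that of its outermost start. The MMP25-AS1 window holds TTCCTGGAA, a GAS match 169 bases before the start. The other 4 windows hold none of these letters, and no printed match overlaps another. Windows were found for 212 of the 282 members. Counted per window, a GAS match was present in 5.18% of the members' 251 windows against 7.66% of all 35116 RefSeq windows of that length. For an ISRE match the shares were 3.59% against 3.57%, and for a kappaB match 2.39% against 1.61%. Counted per member, with a match in any of its windows, the shares were 6.13% for GAS, 4.25% for ISRE and 2.83% for kappaB. Of the 38 members with a window that were higher with cytokines, 2 had a GAS and 3 an ISRE match, the same counts as among the 38 that were lower. A kappaB match stood in 1 higher member, C1RL-AS1, and in 3 lower ones, DHRS4-AS1, EP300-AS1 and TSPEAR-AS1. A match is only a run of letters and was not tested for binding.

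Among the members, 56 rose and 48 fell at an adjusted p under 0.05 of the authors' DESeq test, and 178 did not pass. That is 36.9% of members, beside 37.7% of all tested loci (18.0% higher and 19.7% lower) and 61.1% of all loci of at least 20 counts (27.7% higher and 33.4% lower). The share of members past the threshold rose with abundance, as it did for all loci. It was 38 of 155 members between 20 and 100 counts (24.5%, beside 29.6% of all loci in that range), 57 of 118 between 100 and 1000 counts (48.3%, beside 60.7%), and all 9 members of at least 1000 counts, beside 78.2%. The median SE of the log2 fold change was 0.31 in the lowest and 0.043 in the highest of these classes, so a small change could be called only in abundant members. The median log2 fold change of the members was 0.0087, with quartiles of -0.28 and 0.35, beside a median of -0.028 over all loci of at least 20 counts. The change was 2-fold or more in 21 of the members that rose and in 11 of those that fell. For 25 members 1 group lay under 20 counts, 16 of them in control, so these were admitted through the higher group, and 14 of the 25 were called, 9 higher and 5 lower. The 257 members of at least 20 counts in both groups held 47 that rose and 43 that fell, 12 and 8 of them by 2-fold or more.

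**Figure D1:**
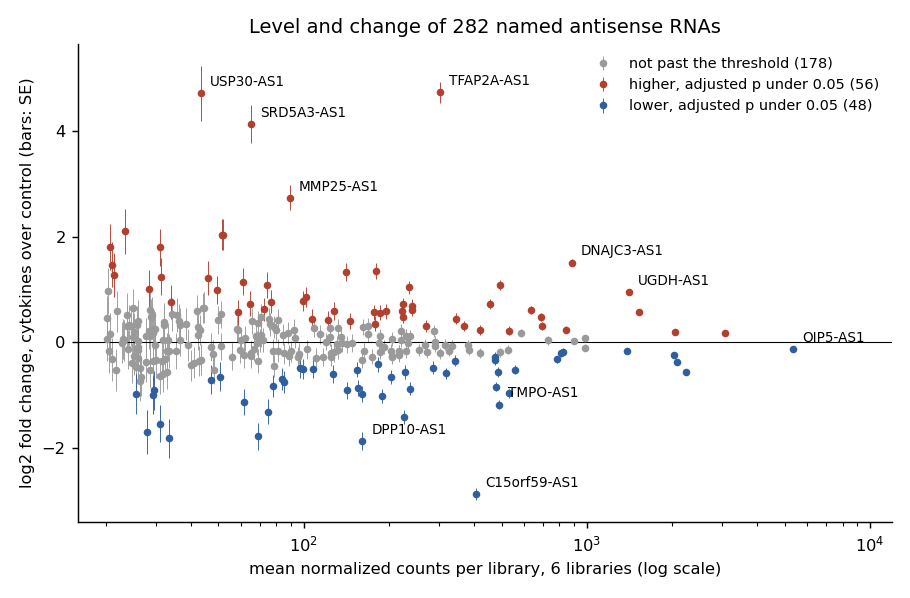
Each point is 1 of the 282 antisense RNAs: the horizontal axis is its mean over 6 libraries in normalized counts (log scale), the vertical axis the deposited log2 fold change of cytokines over control with its SE as a bar. Red marks the 56 that rose, blue the 48 that fell and grey the 178 not past the threshold; TFAP2A-AS1, USP30-AS1 and SRD5A3-AS1 stand above 4 on the log2 scale, and the 9 members of at least 1000 counts at the right lie between -0.57 (BAIAP2-AS1) and 0.95 (UGDH-AS1).

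The rise was more than 4 on the log2 scale in 3 members, and the next stood at 2.74. TFAP2A-AS1 (hg38, chr6:10409340-10416446, plus strand, inside its sense gene) rose from 21.9 to 585 normalized counts, a deposited log2 fold change of 4.74 ± 0.20 (SE; adjusted p = 4.04e-126 in the authors' DESeq test). Its sense gene TFAP2A, which encodes the transcription factor AP-2 alpha, also rose, from 119 to 536 counts (2.17 ± 0.12 in the deposited table). The antisense change exceeded the sense change by 2.57 on the log2 scale, with a 95% interval of 2.12 to 3.02. Per length, the antisense locus stood below its sense gene in control, at 0.352 against 1.06 FPKM, and above it with cytokines, at 8.42 against 5.45 FPKM, in the authors' deposited Cuffdiff table. An unannotated transcript assembled at that locus went from 0.169 to 4.74 FPKM and an annotated one from 0.140 to 3.30 FPKM, so both rose (q = 8.33e-04 and 0.00626, Cuffdiff).

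USP30-AS1 (chr12:109052344-109053986, minus strand) lies inside USP30, the gene of a deubiquitinase of the mitochondrial outer membrane. It rose from 3.17 to 83.6 normalized counts (4.72 ± 0.52, adjusted p = 1.19e-18 in the authors' DESeq test), and from 0.124 to 25.3 FPKM in the deposited Cuffdiff table. The Cuffdiff rise, 7.67 on the log2 scale, was larger, so the size of the rise is uncertain. Its annotated transcript did not pass when tested by itself (q = 0.220, Cuffdiff). USP30 itself moved by only 0.11 ± 0.046 in the count table, a call that Cuffdiff did not make, so the pair differed by 4.61 (3.58 to 5.64). The annotated exons of the antisense RNA share 277 bases with exons of USP30. SRD5A3-AS1 (chr4:55363971-55395847, minus strand) overlaps the far end of SRD5A3, a reductase needed to make dolichol for protein glycosylation. This RNA rose from 7.0 to 123 counts (4.14 ± 0.37 in the deposited table) while SRD5A3 stood at 58.7 and 58.4 counts (-0.0072 ± 0.24). Both RNAs passed the 20-count minimum only through the cytokine group. In control they had the lowest means of all 282 members.

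MMP25-AS1 (chr16:3037400-3059370, minus strand) and MMP25, a membrane-anchored matrix metalloproteinase best known from neutrophils, start 403 bases apart and rose together. The antisense RNA went from 23.3 to 156 counts (2.74 ± 0.24) and MMP25 from 10.5 to 105 counts (3.33 ± 0.33) in the deposited table, a difference of -0.59 with an interval from -1.38 to 0.20. C4A-AS1 and C4B-AS1 (chr6:31999976-32003521 and chr6:32032713-32036258, minus strand) lie at the far ends of the complement genes C4A and C4B, which are near-identical copies of each other. They rose by 2.04 ± 0.29 and 2.04 ± 0.29 in the deposited count table, from 20.2 to 83.4 and from 20.2 to 83.0 counts, while the locus of C4A, which holds 3 symbols, went from 2471 to 11381 and C4B from 1545 to 10241 counts. Counting could not be shown to separate the 2 copies, and both antisense RNAs were listed at 0 FPKM in both groups of the deposited Cuffdiff table, so their values are uncertain. CFLAR-AS1 rose from 9.19 to 32.0 counts (1.80 ± 0.44) together with CFLAR, an inhibitor of caspase-8 activation, at 1.04 ± 0.031 in the deposited table. DLGAP1-AS1 rose from 8.80 to 37.8 counts, while DLGAP1, a postsynaptic scaffold gene, had a mean of 0.949 in control and 2.47 with cytokines and was not called. ANKRD34C-AS1 rose from 13.9 to 48.2 counts, while ANKRD34C stood at 45.1 and 31.9 counts and did not pass (-0.50 ± 0.30). CFLAR-AS1, DLGAP1-AS1 and ANKRD34C-AS1 were under 20 counts in control.

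DNAJC3-AS1 (now named DNAJC3-DT, chr13:95648711-95676973, minus strand) was the most abundant of the 10 members with the largest rises. Its start lies 166 bases from that of DNAJC3, an endoplasmic reticulum co-chaperone of the unfolded protein response, and the 2 genes share no exonic base. The antisense RNA went from 459 to 1309.7 counts (1.51 ± 0.069) and DNAJC3 from 2647 to 7333 (1.47 ± 0.034) in the deposited table. The difference between the changes was 0.042, with an interval from -0.11 to 0.19, which excludes a gap of 2-fold in either direction. In the deposited Cuffdiff table the pair went from 5.06 to 14.1 and from 10.5 to 30.1 FPKM.

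**Figure D2:**
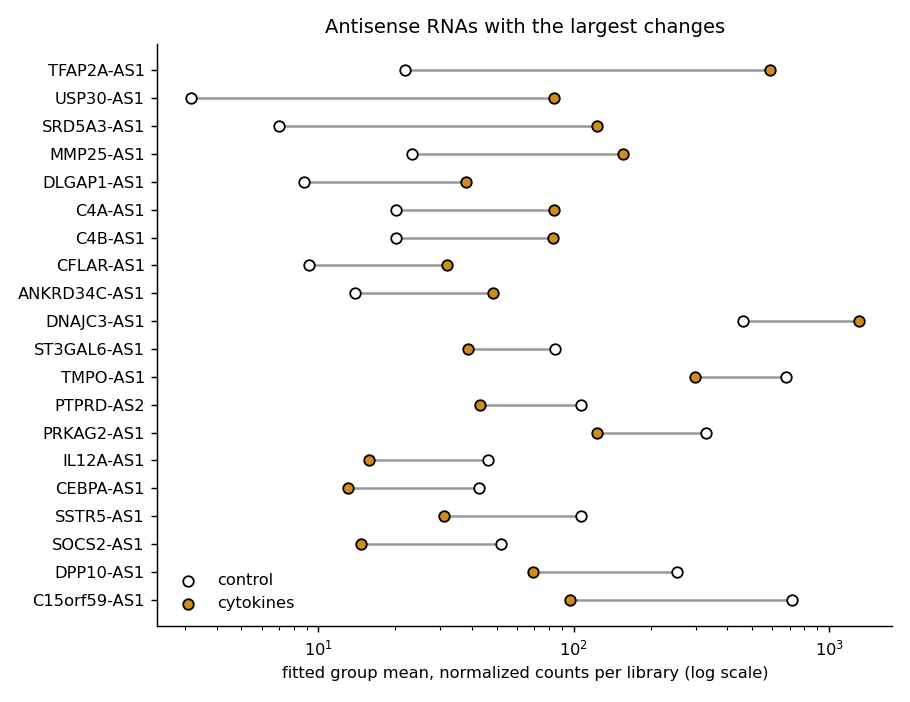
Open circles are control and filled circles cytokine group means in normalized counts per library (log scale), derived from the mean and the fold change, for the 10 members that rose most and the 10 that fell most. TFAP2A-AS1 moved from 21.9 to 585 and C15orf59-AS1 from 714 to 96.9; most other rises start below 30 counts.

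The steepest fall was that of C15orf59-AS1 (now named INSYN1-AS1, chr15:73752317-73770613, plus strand), whose sense gene encodes a factor of inhibitory synapses. It fell from 714 to 96.9 normalized counts (-2.88 ± 0.12, adjusted p = 1.23e-132 in the authors' DESeq test), and from 16.2 to 2.16 FPKM in the deposited Cuffdiff table. C15orf59 fell less, from 1230.3 to 367 counts, and the antisense change was lower by a difference of -1.14 (-1.41 to -0.86). The starts of the 2 genes lie 61 bases apart. DPP10-AS1 (chr2:115126622-115161385, minus strand) went from 253 to 69.2 counts (-1.87 ± 0.16), while DPP10, an auxiliary subunit of Kv4 potassium channels, went from 3427 to 1697 (-1.01 ± 0.042) in the deposited table. Here too the antisense RNA fell further, by a difference of -0.85 (-1.19 to -0.52).

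SOCS2-AS1 and SSTR5-AS1 fell about as far as their sense genes. SOCS2-AS1 went from 52.0 to 14.7 counts (-1.82 ± 0.37), and SOCS2, a suppressor of cytokine signalling that acts on the growth hormone receptor, from 338 to 102 (-1.72 ± 0.13) in the deposited table. SSTR5-AS1 (chr16:1064087-1078731, minus strand) went from 107 to 31.1 counts (-1.78 ± 0.26), and SSTR5, a somatostatin receptor of islet cells, from 182 to 39.6 (-2.20 ± 0.21). The intervals of the 2 differences, -0.86 to 0.67 and -0.24 to 1.07, include 0 and are wide. PRKAG2-AS1 fell from 329 to 123 counts and PRKAG2, a regulatory subunit of the AMP-activated protein kinase, from 2074 to 1283 counts in the deposited table. TMPO-AS1 (chr12:98512973-98516422, minus strand) fell from 678 to 299 counts (-1.18 ± 0.088) and TMPO, a nuclear lamina protein, by less (-0.63 ± 0.032). ST3GAL6-AS1 and the sialyltransferase gene ST3GAL6 stood at -1.13 ± 0.24 and -1.21 ± 0.059 in the deposited table, starting 2 bases apart. CEBPA-AS1 fell from 42.6 to 13.1 counts, while the transcription factor gene CEBPA, at 17.2 and 7.23 counts, did not pass in the count test (adjusted p = 0.0593 in the authors' DESeq test) but was called lower by Cuffdiff.

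The 5 most abundant members were all called, with changes of less than 2-fold. OIP5-AS1, a long noncoding RNA also known as cyrano that binds a microRNA, had the highest mean and went from 5586 to 5123 counts (-0.12 ± 0.029), while its sense gene OIP5, a centromere factor, fell by more (-0.90 ± 0.11). PSMD5-AS1, now annotated as the pseudogene CUTALP, went from 2902 to 3270.5 counts (0.17 ± 0.04), and PSMD5, a proteasome assembly chaperone, stood at -0.23 ± 0.044 in the deposited table. BAIAP2-AS1 and BAIAP2, an actin regulator, both fell, at -0.57 ± 0.042 and -0.51 ± 0.057, with a difference between -0.20 and 0.077. TP73-AS1 went from 2351 to 1816 counts (-0.37 ± 0.042), far less than TP73, a p53-family transcription factor, which went from 85.2 to 19.0 (-2.16 ± 0.30). OTUD6B-AS1 rose from 1901 to 2189 counts while the deubiquitinase gene OTUD6B stood at -0.0062 ± 0.053 in the deposited table.

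Of the 282 members, 279 had a locus of their sense gene in the count table and 277 pairs had an adjusted p for both partners. HOXD-AS2, RPARP-AS1 and PGM5P3-AS1 had no sense locus, and the sense loci of SMIM2-AS1 and FOXD3-AS1 had no adjusted p. Both partners were called in 74 pairs: 60 moved in the same direction (32 higher, 28 lower) and 14 in opposite directions. In 29 pairs the antisense RNA alone passed, in 125 the sense gene alone and in 49 neither. The sense gene was called in 199 of the 277 pairs, 91 higher and 108 lower. The sense loci of these pairs had a median mean of 1669 counts. Of all loci, 78.2% of those of at least 1000 counts and 60.7% of those between 100 and 1000 were called. Across the 277 pairs the log2 fold changes had a Pearson r of 0.45 and a Spearman rho of 0.47, given as a description, because all pairs come from the same 6 libraries, some partners share bases, and 273 distinct sense loci served 277 pairs. The r was 0.56 without IL12A-AS1, whose sense gene is listed at 0 FPKM in control, a choice made after seeing the data. The difference of the 2 changes, with a 95% interval from both deposited SEs taken as independent, excluded 0 in 95 pairs, 50 with the antisense RNA above and 45 below. It lay wholly within 2-fold in 166 pairs and wholly beyond 2-fold in 12. Sense loci of several symbols carry the reads of all their genes, and the 226 pairs with a single-symbol sense locus held 50 pairs in the same and 12 in opposite directions.

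**Figure D3:**
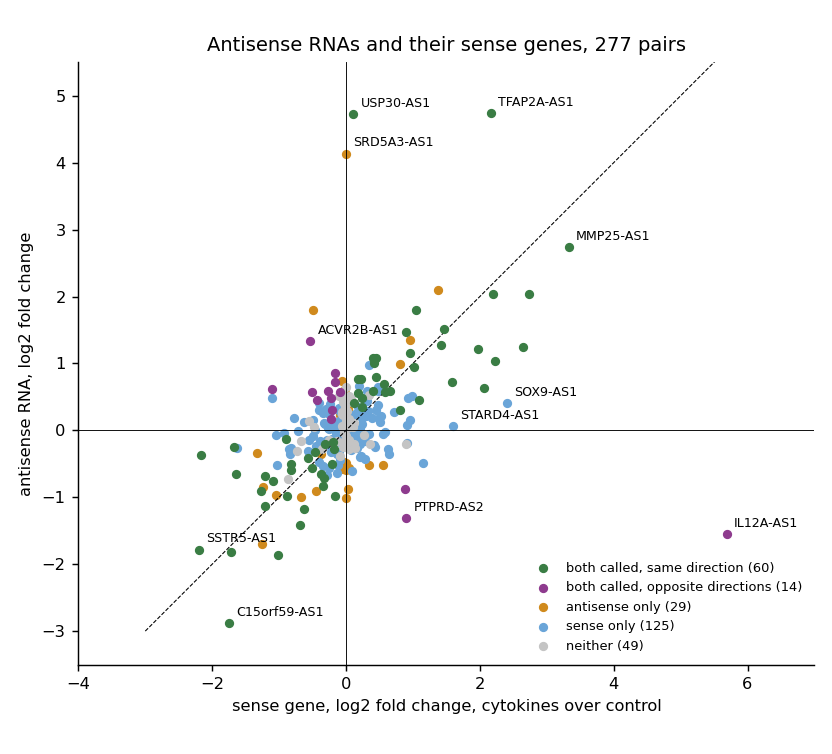
Each point is 1 of 277 pairs, with the log2 fold change of the sense gene on the horizontal and of the antisense RNA on the vertical axis, coloured by which partner passed the threshold; the dashed line marks equal change. MMP25-AS1 lies near that line, USP30-AS1 and SRD5A3-AS1 lie far above it at a sense change near 0, and IL12A-AS1 and PTPRD-AS2 lie in the lower right, where the sense gene rose and the antisense RNA fell. The horizontal position of IL12A-AS1 is a fitted value over a control group listed at 0 FPKM and gives no size of that rise.

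Of the 32 pairs in which both partners rose, 5 further ones are given here. UGDH-AS1 went from 960.3 to 1849.7 counts and UGDH, which makes UDP-glucuronate, from 1907 to 3871, with changes of 0.95 ± 0.056 and 1.02 ± 0.037 in the deposited table. MAP3K14-AS1 and MAP3K14, the NF-kappaB-inducing kinase of the noncanonical pathway, stood at 0.59 ± 0.13 and 0.65 ± 0.083, from 177 to 267 and from 404 to 635 counts. C1RL-AS1 rose from 154 to 317 counts (1.04 ± 0.12), less than the locus of C1RL, a complement C1r-like protease, at 2.23 ± 0.044. Cuffdiff did not call C1RL-AS1 (q = 0.132). ZEB1-AS1 rose from 169 to 279 counts and ZEB1, a repressor known from epithelial-mesenchymal transition, from 127 to 379 in the deposited table. CEBPB-AS1, chosen after its values were seen, passed the minimum through the cytokine group and rose from 18.6 to 43.9 counts (1.24 ± 0.35) beside CEBPB, a transcription factor of the acute-phase response, at 2.64 ± 0.065.

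In 11 of the 14 opposite pairs the antisense RNA was higher and the sense gene lower with cytokines. ACVR2B-AS1 (chr3:38451027-38454820, minus strand) rose from 80.0 to 202 counts (1.34 ± 0.16) while ACVR2B, an activin receptor, fell from 2107 to 1455 (-0.53 ± 0.048) in the deposited table. The 2 genes share no exonic base and start 501 bases apart, and Cuffdiff called the same directions. SCAMP1-AS1 rose (0.57 ± 0.14) while SCAMP1, a secretory carrier membrane protein, fell (-0.50 ± 0.034), again with both directions called by Cuffdiff. These 2 pairs, called opposite in both deposited tables, are among 8 of the 277 pairs that Cuffdiff called in opposite directions.

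RNF139-AS1 and CARD8-AS1 stood at 0.85 ± 0.19 and 0.59 ± 0.17, beside -0.16 ± 0.061 for the 3-symbol locus of RNF139, a ubiquitin ligase of the endoplasmic reticulum, and -0.26 ± 0.046 for CARD8, an inflammasome sensor. None of these 4 values passed in the deposited Cuffdiff table. PPP3CB-AS1, at 0.45 ± 0.18, passed narrowly (adjusted p = 0.0393 in the authors' DESeq test), beside -0.43 ± 0.033 for PPP3CB, a catalytic subunit of calcineurin. Its call was lost when p-values were adjusted over all loci with a p (adjusted p = 0.0580, Benjamini-Hochberg over the authors' DESeq p-values) and with Cuffdiff (q = 0.135). Other opposite pairs with a higher antisense RNA were TPT1-AS1, MKLN1-AS, ZNF529-AS1 and PSMD5-AS1, with differences of 0.70, 0.66, 0.51 and 0.40.

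The other 3 antisense RNAs fell while their sense gene rose. PTPRD-AS2 (now named PTPRD-DT, chr9:10613202-10620420, plus strand) fell from 107 to 43.1 counts (-1.31 ± 0.23) while PTPRD, a receptor-type tyrosine phosphatase, rose from 1017 to 1899 (0.90 ± 0.051) in the deposited table. A second antisense RNA of that gene, PTPRD-AS1 (chr9:8858084-8864772, plus strand, inside PTPRD), named after its values were seen, passed the minimum through the cytokine group and rose from 11.2 to 31.0 counts (1.47 ± 0.43). PTPRD-AS2 starts 200 bases from the outermost PTPRD start and PTPRD-AS1 308 bases from an internal one. Only 1.44% of the FPKM at the PTPRD-AS2 locus was in annotated transcripts. CLSTN2-AS1 fell from 202 to 109.9 counts (-0.87 ± 0.15) inside CLSTN2, a calsyntenin gene that rose from 910.3 to 1674, but annotated transcripts held 2.49% of its FPKM and Cuffdiff did not call it (q = 0.102). IL12A-AS1 fell from 46.3 to 15.8 counts (-1.55 ± 0.35) and passed the minimum through the control group. Cuffdiff gave it no test, at 0.0561 FPKM in control and 0.0466 with cytokines. IL12A, a subunit of interleukin-12 that lies inside this antisense RNA, is listed at 0 FPKM for control cells. With cytokines it had 8.98 normalized counts, which is 8.98-fold a chosen floor of 3 reads summed over the 3 control libraries. As control reads per library are not known, this gives no bound on the rise.

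**Figure D4:**
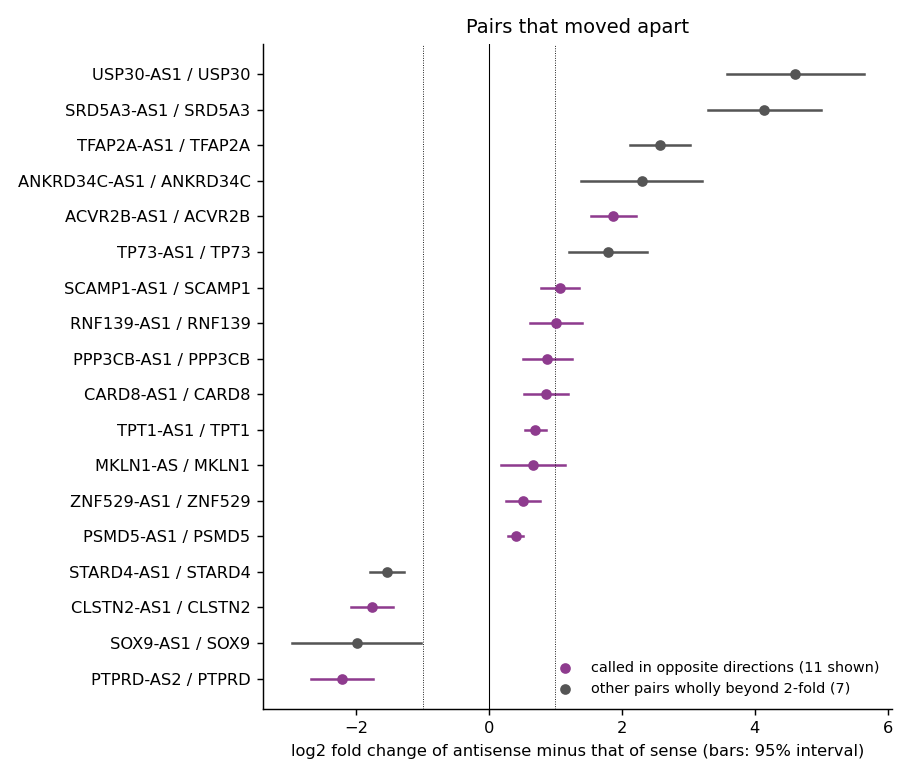
Points are the log2 fold change of the antisense RNA minus that of its sense gene, with bars for the 95% interval and dotted lines at 2-fold, for 11 of the 14 pairs called in opposite directions and 7 further pairs whose interval lies wholly beyond 2-fold. Of the pairs drawn, USP30-AS1 stands highest, at 4.61, and PTPRD-AS2 lowest, at -2.21; IL12A-AS1 is not drawn because its sense gene is listed at 0 FPKM in control.

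Some antisense RNAs changed while a precisely measured sense gene stayed near its control level. The next 5, apart from CCNT2-AS1, were named after their values were seen. EP300-AS1 fell from 253 to 125 counts (-1.02 ± 0.14) beside -0.0017 ± 0.028 for EP300, a histone acetyltransferase, in the deposited table. CCNT2-AS1 fell from 307 to 167 counts (-0.88 ± 0.12) beside 0.024 ± 0.038 for CCNT2, a cyclin of transcription elongation. RNASEH1-AS1 stood at -0.56 ± 0.087 and OSER1-AS1 at -0.59 ± 0.11, with 0.046 ± 0.05 for RNASEH1, which cuts RNA paired to DNA, and 0.0063 ± 0.051 for OSER1. Cuffdiff called the falls of RNASEH1-AS1 and OSER1-AS1 and not those of EP300-AS1 and CCNT2-AS1. PXN-AS1 fell from 113 to 81.0 counts beside -0.0013 ± 0.041 for PXN, the focal adhesion protein paxillin. PDX1-AS1 (PLUT) rose from 190.1 to 291 counts (0.62 ± 0.12) while PDX1 stood at 17183 and 16950.1 (-0.02 ± 0.021), but annotated transcripts held 1.49% of the FPKM at its locus and Cuffdiff did not call it (q = 0.422).

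The reverse case, a sense gene that moved without its antisense RNA, was the commonest class with 125 pairs. STARD4, a carrier of cholesterol, rose from 3213 to 9700.1 counts (1.59 ± 0.029), while STARD4-AS1, named after its values were seen, had 201 and 209.6 counts (0.062 ± 0.13). The interval of that difference, -1.79 to -1.27, lies wholly beyond 2-fold. SOX9, a transcription factor of pancreatic duct and progenitor cells, rose from 0.0823 to 0.472 FPKM in the deposited Cuffdiff table (2.40 ± 0.32 in the count table), while SOX9-AS1 had 22.3 and 29.7 counts (0.41 ± 0.38). In this class the antisense SE was a median of 5.44 times the sense SE, so a change of the antisense RNA of the same size might not have been detectable.

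Positions came from GENCODE release 44 on hg38, and a distance between starts is the smallest over the annotated transcripts of both genes. Of the 282 members, 157 lay head to head with their sense gene (51 apart and 106 overlapping), 47 tail to tail (46 of them overlapping), 50 inside the sense gene, and 21 held the sense gene inside them. The 7 that could not be placed include LHX4-AS1, whose locus matched the coding gene ACBD6 in that annotation. GENCODE now names 39 members as divergent transcripts (suffix DT), which start near their sense gene and run away from it. Among head to head pairs, 33 moved in the same and 10 in opposite directions of 156, among tail to tail pairs 10 and 0 of 47, among antisense RNAs inside the sense gene 11 and 3 of 50, and among sense genes inside the antisense RNA 4 and 1 of 20. The 192 pairs with starts within 1000 bases of each other held 12 of the opposite pairs and had a Pearson r of 0.63, with a Spearman rho of 0.49. The 81 pairs with starts further apart had 0.21 and 0.41, and their r was 0.44 without IL12A-AS1. These differences between position classes were not tested.

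**Figure D5:**
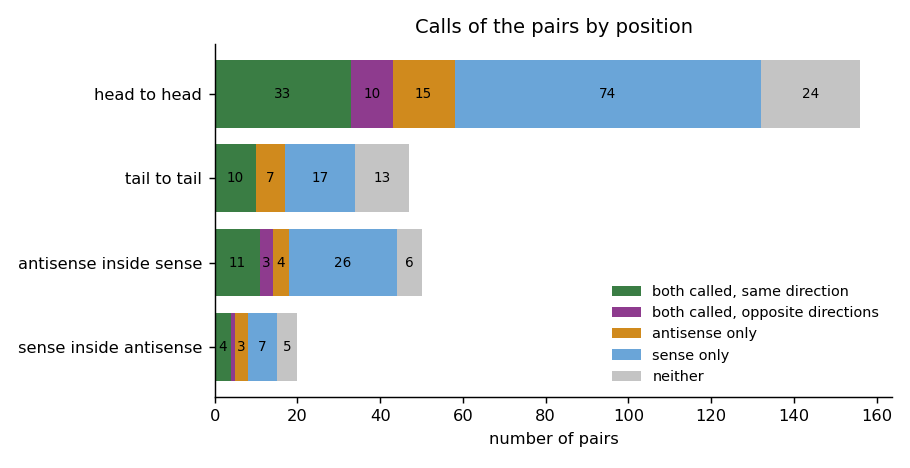
Bars give the number of pairs in each position class, divided by which partner passed the threshold, with the count printed in segments of more than 2 pairs. The head to head bar of 156 pairs holds 33 pairs in the same and 10 in opposite directions, and the tail to tail bar of 47 holds 10 and none.

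Partners that overlap can share reads. The library kit kept strand, but no source used here says whether the counting used it, so reads of overlapping partners cannot be told apart. Exons of both partners shared bases in 174 of the 273 placed pairs, a median of 6.78% of the antisense exons. These pairs held 40 in the same and 6 in opposite directions, and had a Pearson r of 0.41, or 0.56 without IL12A-AS1. The 99 pairs that share no exonic base held 18 in the same and 8 in opposite directions, with an r of 0.56. DNAJC3-AS1, BAIAP2-AS1, DPP10-AS1 and SSTR5-AS1 are among the pairs that moved in the same direction and share no exonic base in GENCODE. The counted loci were assembled and can reach beyond that annotation, so sharing of reads at them was not tested.

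In FPKM, which is per length, antisense RNAs were mostly below their sense genes. The median ratio of antisense to sense in control was 0.163 over 270 pairs with both values above 0, with quartiles of 0.0345 and 0.525, in the deposited Cuffdiff table. The antisense RNA exceeded the sense gene in 50 of these pairs in control and in 53 with cytokines. Cuffdiff tested 265 of the members and called 32 higher and 30 lower, which is 23.4% beside 36.4% of all tested loci of that table. Among the members with a test in both tables, 57 were called by both and had the same direction in both, 41 were called in the count test only and 5 by Cuffdiff only. Of those 5, LMCD1-AS1 disagreed in sign, at -0.36 ± 0.35 in the count table but from 0.806 to 2.88 FPKM (q = 0.00309, Cuffdiff). It is named after its values were seen, and 20.1% of its FPKM was in annotated transcripts.

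The antisense loci hold more than the annotated RNA. The assembly had 2787 transcripts at the members' loci, of which 1212 carried the antisense symbol, and annotated transcripts held a median of 68.1% of the FPKM. In 97 of 276 members they held under 50%. Of 955 tested transcripts at these loci 27 were higher and 29 lower with cytokines at q under 0.05 of Cuffdiff, a share of 5.86% beside 9.87% of all transcripts tested (5.17% higher and 4.7% lower). Within OIP5-AS1, 1 annotated transcript fell from 6.42 to 2.76 FPKM (q = 0.0441, Cuffdiff) and 1 unannotated transcript from 1.51 to 0.214 FPKM (q = 0.00562, Cuffdiff). The most abundant OIP5-AS1 transcript stood at 10.7 and 11.8 FPKM (q = 0.328, Cuffdiff). Of the 2 annotated C15orf59-AS1 transcripts, the more abundant fell from 7.92 to 0.800 FPKM (q = 8.33e-04, Cuffdiff), and the other stood at 0.598 and 0.0875 FPKM (q = 0.416).

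A list of 30 antisense RNAs with published functions held 15 members, of which 2 rose, among them ZEB1-AS1, and 7 fell. That is 60%, beside 36.9% of members and 61.1% of all loci of at least 20 counts. The median log2 fold change was -0.21, beside 0.0087 for the members. The list was not matched to the members for abundance. Between 20 and 100 counts 24.5% of members were called, between 100 and 1000 counts 48.3%, and at 1000 counts or more 100%. TMPO-AS1 and OIP5-AS1 are among the falls given earlier. FOXD2-AS1 fell from 185 to 98.6 counts, FOXP4-AS1 from 34.1 to 17.3, WDFY3-AS2 from 333 to 239, FGD5-AS1 from 528 to 418 and LOXL1-AS1 from 874 to 699.7 in the deposited table. Cuffdiff did not call FOXP4-AS1 (q = 0.351) or WDFY3-AS2 (q = 0.218). FOXP4-AS1 passed the minimum through the control group, and its adjusted p was 0.0267 in the authors' DESeq test. BACE1-AS, known to stabilize the messenger RNA of the protease BACE1, stood at -0.13 ± 0.22, and BDNF-AS, known to repress the neurotrophin gene BDNF, at -0.21 ± 0.23 in the count table. Neither passed there.

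Members were also grouped by the role of the sense gene, and none of the 3 lists below moved in 1 direction throughout. The list for interferon, antigen presentation and inflammation held 7 members. Of these, 3 rose (C1RL-AS1, CARD8-AS1, MAP3K14-AS1) and 2 fell (SOCS2-AS1, IL12A-AS1), with a median log2 fold change of 0.31. That median is the value of PRKAR2A-AS1, which did not pass. Its sense gene encodes a subunit of cAMP-dependent protein kinase and is not specific to immunity. The size, share called and median of this list include it, while the complement genes C4A and C4B are not on it. TRAF3IP2-AS1, opposite the gene of an adaptor of the IL-17 receptor, stood at -0.21 ± 0.17 and did not pass, while TRAF3IP2 stood at 0.21 ± 0.054. Of 15 antisense RNAs of developmental transcription factors 4 rose (among them TFAP2A-AS1, ZEB1-AS1 and PDX1-AS1) and 3 fell (FOXD2-AS1, FOXP4-AS1, LHX4-AS1), with a median of -0.054. Of 10 in metabolism 1 rose (UGDH-AS1) and 2 fell (PRKAG2-AS1, MRPL23-AS1), with a median of 0.17. The locus of LHX4-AS1 matched the coding gene ACBD6 in GENCODE, so its fall may be that of a coding transcript, which was not tested. The share called was 71.4%, 46.7% and 30% in these 3 lists, beside 36.9% of all members.

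Genes known to act on antisense RNA were taken from a pair of lists. Of 25 genes of the nuclear RNA exosome and its adaptors, which degrade unstable nuclear transcripts, 4 rose and 15 fell, with a median log2 fold change of -0.18. That is 76% called, beside 78.2% of all loci of at least 1000 counts, where 18 of these 25 lie. The core subunit gene EXOSC5 fell from 472 to 128 counts (-1.88 ± 0.12), the adaptor gene MPHOSPH6 from 996 to 575 and EXOSC2 from 1732 to 1172 in the deposited table. Cuffdiff did not call EXOSC5, at 10.6 and 3.09 FPKM (q = 0.0907). ZCCHC7, a component of a polyadenylating adaptor of the exosome, rose from 790.0 to 1055 counts. Of 23 genes that bind, edit or sense double-stranded RNA 12 rose and 9 fell, which is 91.3% called, and 17 of the 23 lie at 1000 counts or more. Among the rises, the sensor gene OAS1 went from 325 to 8220.2 counts, OAS3 from 2965 to 30250 counts, the helicase sensor gene IFIH1 from 1025 to 9219, and the editing enzyme gene ADAR from 13201 to 34389.8 in the deposited table. OAS2, TLR3 and OASL, which had under 3 counts in control, stood at 140.4, 152 and 64.4 counts with cytokines. DICER1, which cuts double-stranded RNA, fell from 7205 to 5129.9 counts and ADARB1 from 253 to 138, but Cuffdiff did not call ADARB1 (q = 0.685). Whether these genes bear on the antisense RNAs was not tested.

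The labelled cell type was checked against its markers. All 14 beta cell markers had reads in the deposited table, with 3 higher and 8 lower, which is 78.6% beside 78.2% of all loci of at least 1000 counts. The locus of INS, which also holds IGF2 and H19 so that its reads cannot be assigned to INS alone, stood at 56569 and 38102 and PDX1 at 17183 and 16950.1 counts. Of 12 markers of other cells PRSS1 and VIM are listed at 0, the 5 genes GCG, PPY, PTPRC, CD3E and PECAM1 lay under 8 counts in both groups, and SST, KRT19, COL1A1, CPA1 and the locus of CD68 had higher levels. Their summed level was 29863 counts in control and 28986 with cytokines. Most of it was the 9-symbol locus of CD68 (24413 and 22526), which also holds EIF4A1 and SENP3 and so is no measure of CD68. Of the others, KRT19 stood at 2937 and 3553 counts, CPA1 at 1905 and 1422, COL1A1 at 532 and 1394, and SST at 63.0 and 80.0. The part of these markers of other cells in the changes of the antisense RNAs was not tested. In bulk RNA, fewer cells with an RNA and less of it per cell cannot be told apart.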

How the data were processed

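Per the submitters' processing notes, the tools listed include STAR 2.5.2b, StringTie, DESeq and Cuffdiff 2.2.1, with build hg38. No source used here names the read counter, the annotation or the strand setting. Per the file headers, the signal in the count tables is a mean of normalized counts across the 6 libraries. Log2 values are deposited fold changes (cytokines over control) with an SE in the count tables. The score in the deposited tables is the authors' test statistic and was not used. The p-values and q-values are the authors' own, as deposited. FPKM values are the authors' deposited Cuffdiff values per group.

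The authors' adjusted p under 0.05 was used as theirs, because values per library were not among the files used here. The planned test on samples was replaced in this way. Benjamini-Hochberg adjustment over both count tables together gave the deposited values within 1.53e-15. Group means were derived from the mean and the fold change. Differences between antisense and sense changes carry normal 95% intervals from both deposited SEs, with partners treated as independent, and have no p. Sense genes were found by removing the suffix, then through RefSeq synonyms (2 members). Positions came from GENCODE release 44, and promoter windows from RefSeq (GRCh38.p14). Named genes were the 10 largest rises and falls past the threshold, the 5 most abundant members, up to 10 opposite pairs, and members of the lists; 2 of these members and their sense genes are not reported here. Members and lists were chosen with earlier results of these data known. The adjustment and the interval were run on simulated data with independent errors drawn from the deposited SEs. That run checks the computation only. It cannot show how the interval behaves for partners that share libraries or reads. Computation used numpy 2.4.6, pandas 2.3.3 and scipy 1.17.1 in Python 3.11.15, with figures from matplotlib 3.10.9.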

Additional observations from a re-analysis of the deposited data

How the results depend on the processing

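No paired analysis was possible because the deposited tables hold no values per library, and for the same reason no library could be left out. The settings tried were an adjusted p under 0.01, a minimum mean of 50, no minimum, an adjustment over all loci with a p, fold changes re-centred on the median of loci of at least 1000 counts (-0.056), Cuffdiff in place of DESeq, single-symbol sense loci, and pairs without shared exonic bases. The counts of members that rose (56) and fell (48) moved by more than 1.5 times under 2 settings. Cuffdiff called 32 higher and 30 lower, and the 99 members that share no exonic base with their sense gene gave 18 and 18. The pairs in the same direction (60) became 38 with Cuffdiff and 18 without shared exonic bases, and those in opposite directions (14) became 8 under each of these. Leaving pairs out lowers a count by itself, and for Cuffdiff the cause was not tested. Re-centring gave 65 higher and 42 lower, and 98 of the 104 members called before were called again in the same direction. Under an adjusted p of 0.01 there were 84. Of the 72 members chosen by rule, 67 had a Cuffdiff test, and 10 of these lost and 2 gained a call with Cuffdiff, none with a called change of sign. The SE of members under 100 counts (median 0.31) limits what could be detected there.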
